A study of Rattus norvegicus with 30 samples.

Results

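The 8 genes described here encode enzymes and regulators that handle nitrosamines and the DNA damage they leave: the cytochromes P450 Cyp1a1, Cyp1b1, Cyp2a3 and Cyp2e1, their reductase Por, the aryl hydrocarbon receptor Ahr with its repressor Ahrr, and the repair protein Mgmt. They are 8 of 14217 genes measured in the rat oesophagus, listed by name under a rule that uses no measured value, although earlier results of these data were known, and each was read from its probe set with the highest mean. Each of the 30 male Sprague-Dawley rats gave 1 expression array of oesophageal epithelium and was 4 weeks old when the diets began. All groups received the oesophageal carcinogen N-nitrosomethylbenzylamine (NMBA), at 2 mg/kg in 4 weekly doses from week 5. Of the rats without a gene edit, 5 ate a zinc-deficient diet freely (ZD untreated) and 5 ate a zinc-sufficient diet in amounts matched to the deficient rats (ZS untreated). In another 5 ZD rats the microRNA miR-31 was blocked for 5 weeks with an antisense oligonucleotide of locked nucleic acid (antimiR), given first at 20 mg/kg and then 9 times at 6 mg/kg. The final unedited group of 5 ZD rats had that course and then 20 additional doses, up to week 20. The remaining rats were miR-31 knockouts (KO, miR-31-/-) made with CRISPR/Cas9 in the same strain, 4 on ZS and 6 on ZD, and how many founder lines they came from is not given in the sources used here. Their wild-type littermates were not analysed here. The labels do not settle whether rats of the 5-week course were killed at the same age as the other groups.

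NMBA alkylates DNA after a cytochrome P450 hydroxylates it, and microsomal cytochromes P450 depend on electrons from Por. Cyp2a3 is a rat cytochrome of the nasal and airway lining that acts on nitrosamines, and Cyp2e1 acts on small nitrosamines. Ahr is a ligand-activated transcription factor that induces Cyp1a1, Cyp1b1 and Ahrr, and Ahrr in turn restrains Ahr. Mgmt removes alkyl groups from guanine in a reaction that uses up the protein.

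The microRNA that the oligonucleotide and the knockout both address is shown first, since it defines 4 of the groups. Its mature strand lies at chr5:108714906-108714927 on the minus strand of GRCr8 in RefSeq, with the seed, bases 2 to 8, in capitals. The arrays held 0 probe sets named for it, so neither its inhibition nor its loss could be checked in these values.
rno-miR-31a-5p: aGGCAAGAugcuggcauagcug

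Of the 8 genes, 7 matched the RefSeq promoter table, and the 250 bases before the start are printed for the 3 genes whose level fell on zinc deficiency in at least 1 genotype. Capitals mark GCGTG, or CACGC where it lies on the other strand, the core letters of the element that Ahr binds. The windows are chr6:21094315-21094564 for Cyp1b1, chr1:30821969-30822218 for Ahrr and chr1:91299334-91299583 for Cyp2a3, all on the plus strand of GRCr8. RefSeq's longest gene models for Cyp1b1 and Por begin upstream of the starts used for their windows.
Cyp1b1: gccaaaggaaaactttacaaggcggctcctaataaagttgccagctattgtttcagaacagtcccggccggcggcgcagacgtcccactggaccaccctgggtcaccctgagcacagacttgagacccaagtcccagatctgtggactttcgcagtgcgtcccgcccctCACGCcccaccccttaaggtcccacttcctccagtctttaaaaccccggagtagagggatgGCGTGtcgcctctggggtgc
Ahrr: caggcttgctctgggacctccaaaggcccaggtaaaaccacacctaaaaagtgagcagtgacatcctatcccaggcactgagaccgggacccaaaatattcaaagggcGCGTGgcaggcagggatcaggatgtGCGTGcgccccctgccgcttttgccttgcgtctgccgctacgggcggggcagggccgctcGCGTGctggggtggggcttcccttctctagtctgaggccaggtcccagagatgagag
Cyp2a3: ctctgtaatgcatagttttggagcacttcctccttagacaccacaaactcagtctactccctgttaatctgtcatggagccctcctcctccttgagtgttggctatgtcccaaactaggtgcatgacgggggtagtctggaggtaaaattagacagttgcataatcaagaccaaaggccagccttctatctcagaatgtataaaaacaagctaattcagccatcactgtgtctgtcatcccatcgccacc
The letters occurred 2 times in the Cyp1b1 window, at 81 to 77 and 20 to 16 bases before the start. The Ahrr window held 3 matches, the nearest at 57 to 53 bases before the start, and the Cyp2a3 window held 0. Outside the printed windows, Por had 3 matches and Mgmt 4, whereas Cyp2e1 and Ahr had 0. Among 33469 RefSeq promoter windows of the same length, 25.9% held at least 1 match, 8.12% at least 2 and 2.58% at least 3. A match is a description of the letters only.

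The tissue carried the markers of its label. The mean log2 level of 9 measured keratinocyte genes, out of 11 listed, lay between 12.57 and 13.02 on every array, and that of 6 hepatocyte genes between 4.22 and 5.46. Smooth muscle genes were present too and differed between groups. The mean level of 7 skeletal muscle genes varied widely, from 4.76 to 10.63 on unedited arrays and from 8.05 to 10.92 on KO arrays. The part of skeletal muscle in the results below was not tested. The median of an array was 5.37 to 5.45 on the 20 arrays without an edit and 5.81 to 5.93 on the 10 KO arrays. KO and unedited rats were therefore not tested against each other, and genotype, separate experiment and normalization cannot be told apart in their levels. Changes below are log2 differences with the standard error (SE) of the limma fit, and "rose" and "fell" are used for genes with a p under 0.05 after Benjamini-Hochberg adjustment over all 14217. The means over all arrays of Cyp2e1 (4.48), Ahr (4.19) and Ahrr (4.96) lay below 5.31, the 30th percentile of all gene means. So did the group means of Cyp2a3 on ZD with or without antimiR (4.14 to 5.10) and of Cyp1a1 in the same groups (4.61 to 5.20). The values carry no detection calls.

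**Figure D1:**
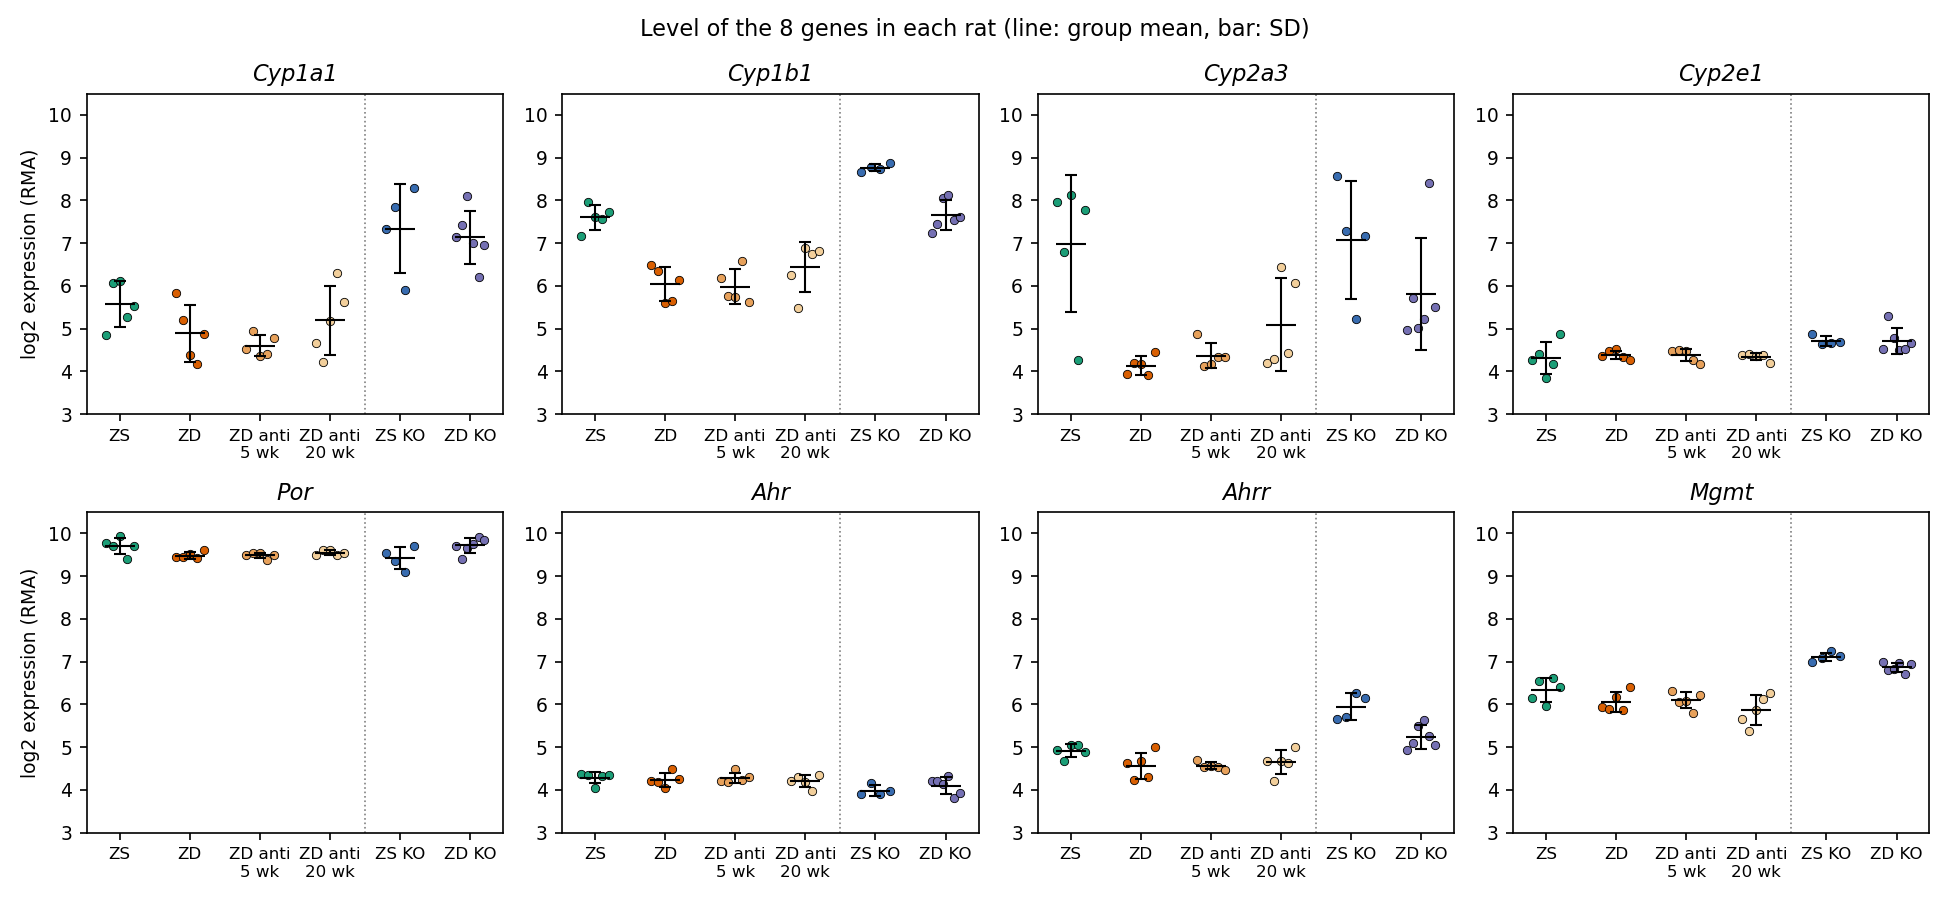
Log2 expression of each of the 8 genes (vertical axis, RMA log2 units) in each rat (points) by group (horizontal axis), with the group mean (line) and SD (bar); the dotted line separates unedited from KO rats. Cyp1b1 on ZS lies between 7.16 and 7.97, above all 15 unedited ZD rats, and Cyp2a3 spreads widely within ZS and within both KO groups.

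In unedited, untreated rats, zinc deficiency went with lower Cyp1b1, which fell by 1.56 on the log2 scale, and lower Cyp2a3, which fell by 2.85. These were 2 of the 8 genes, against 13.9% of all genes called in either direction and 6.95% called lower. The other 6 did not pass, and the median change of the 8 was -0.31 beside a median of 0.00 over all genes. Of the 8, 7 had a change below 0, which in 5 of them did not pass. Contractile genes of smooth muscle moved with this contrast: 9 of 10 fell, the median change of the 10 was -2.30, and their mean level ran from 9.11 to 10.57 on ZS and from 7.10 to 8.38 on untreated ZD.

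Cyp1b1, which oxidises polycyclic hydrocarbons and steroids, had log2 levels of 7.16, 7.97, 7.62, 7.56 and 7.73 in the 5 ZS rats. In the 5 untreated ZD rats the levels were 6.50, 6.35, 5.61, 5.64 and 6.14. The groups did not overlap, which held for 11.4% of all genes. The means were 7.61 ± 0.29 (SD, n = 5) and 6.05 ± 0.41 (SD, n = 5), a 2.96-fold lower level on ZD (change -1.56, SE 0.24, limma adjusted p = 0.000143). With each array's smooth muscle level as a covariate the change was -1.05 and did not pass (adjusted p = 0.076). In bulk tissue, fewer cells that express a gene and less RNA per cell cannot be told apart.

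Cyp2a3 stood at 7.96, 6.80, 8.13, 4.27 and 7.78 in the ZS rats. Its levels in untreated ZD rats were 3.94, 4.21, 4.17, 3.92 and 4.45. Of the ZS rats, 4 lay at 6.80 or above, clear of every ZD rat, and rat 19, at 4.27, lay inside the ZD range. The means were 6.99 ± 1.60 (SD, n = 5) on ZS and 4.14 ± 0.22 (SD, n = 5) on ZD (change -2.85, SE 0.67, limma adjusted p = 0.00553). No fold is given, since the ZD level was not shown to lie above background. Without rat 19 the change was -3.53 (adjusted p = 0.000709). It was -3.57 and did not pass when smooth muscle level was a covariate (adjusted p = 0.0519).

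RefSeq places 10 other Cyp2 genes within 400 kb of it, of which 7 were measured here. Cyp2f4, a lung-type cytochrome, fell from 13.09 ± 0.17 (SD, n = 5) on ZS to 12.14 ± 0.57 (SD, n = 5) on ZD (change -0.95, SE 0.19, limma adjusted p = 0.00151). Cyp2f4 was the 1 of the 7 that passed, a count near the 13.9% of all genes called. The other 6 included Cyp2t1, also at a high level, which averaged 12.86 on ZS and 12.49 on ZD (-0.37, limma adjusted p = 0.119). Cyp2b21 changed by 0.42 (adjusted p = 0.813). Cyp2a1 (0.06) and Cyp2a2 (-0.02) had means between 2.76 and 2.94.

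Cyp1a1, the classical Ahr-induced cytochrome, read 4.84, 6.06, 6.12, 5.28 and 5.53 in the ZS rats. In untreated ZD rats it read 5.83, 5.21, 4.38, 4.17 and 4.89. The groups overlapped, and the change of -0.67 (SE 0.41) had an adjusted p of 0.291, with a 95% interval from -1.51 to 0.16. Its inducer Ahr varied little, between 4.05 and 4.38 on ZS and between 4.05 and 4.48 on ZD (change -0.05, SE 0.10, adjusted p = 0.776).

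Ahrr had log2 levels of 4.93, 4.68, 5.04, 5.05 and 4.89 on ZS. On ZD without treatment they were 4.64, 4.24, 4.67, 4.31 and 4.99. Of these ZD rats, 4 lay below all ZS rats and rat 15, at 4.99, lay among them, and the change of -0.35 (SE 0.15) had an adjusted p of 0.128. Without rat 15 the change was -0.45 (adjusted p = 0.0394). Mgmt read 6.16, 6.54, 5.97, 6.63 and 6.40 on ZS. It read 5.95, 5.89, 6.16, 5.88 and 6.41 on ZD, and the groups overlapped (change -0.28, SE 0.14, adjusted p = 0.185).

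Por, the electron donor, stood at 9.78, 9.71, 9.94, 9.40 and 9.70 on ZS. On ZD without treatment it stood at 9.44, 9.44, 9.51, 9.42 and 9.61. Of the ZS rats, 4 lay above every ZD rat, and the lowest was again rat 19 (change -0.22, SE 0.10, adjusted p = 0.125). Without rat 19 the change was -0.30 (adjusted p = 0.0409). The other Por probe set read 7.17 ± 0.40 (SD, n = 5) on ZS and 6.93 ± 0.07 (SD, n = 5) on ZD. Cyp2e1 read between 3.84 and 4.87 on ZS and between 4.27 and 4.52 on ZD (change 0.07, SE 0.14, adjusted p = 0.787).

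**Figure D2:**
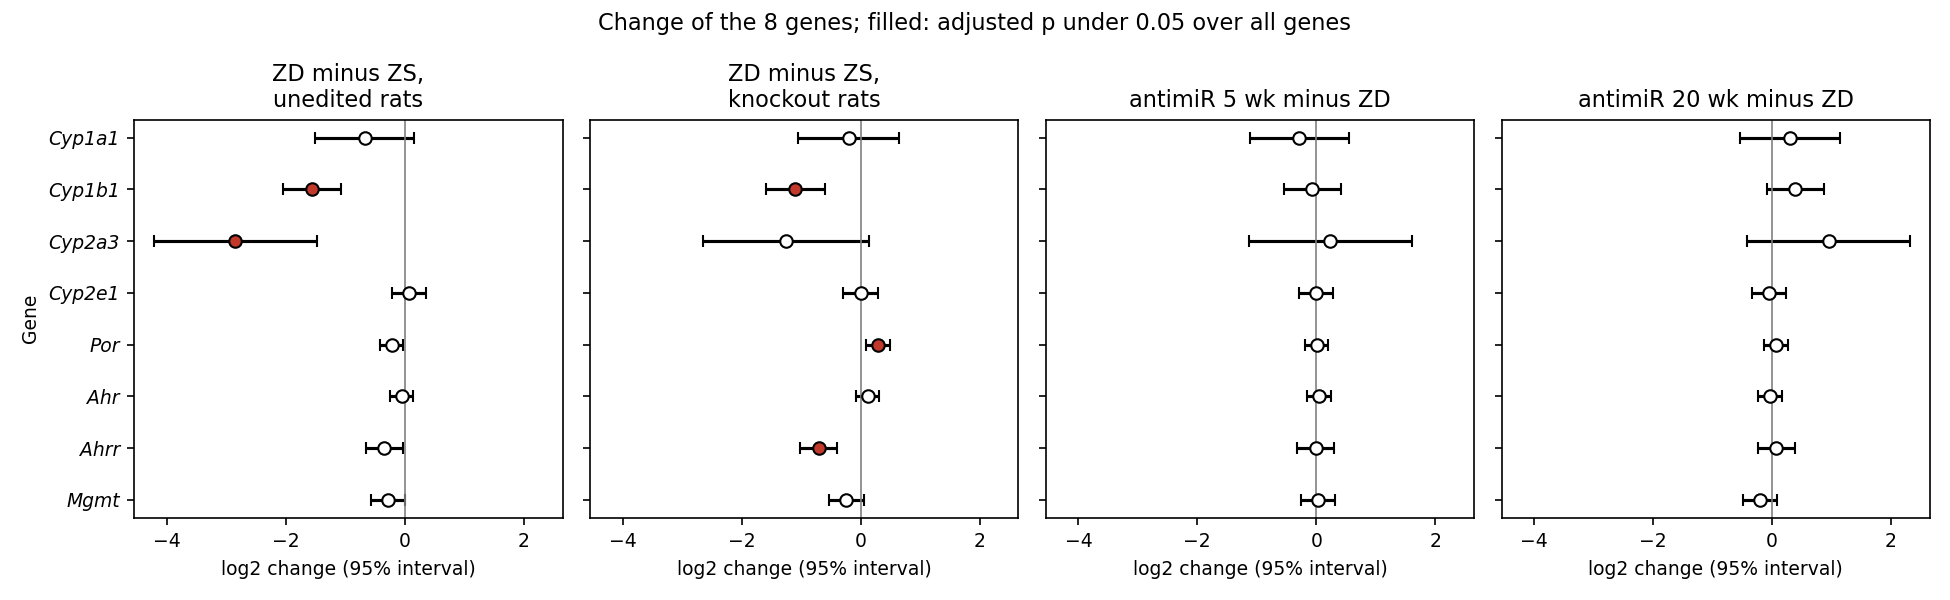
Log2 change of each of the 8 genes (points, horizontal axis) with its 95% interval (bars) for zinc deficiency in unedited and KO rats and for each antimiR course against untreated ZD; filled points passed an adjusted p of 0.05 over all genes. Cyp1b1 passed for both diet contrasts, Cyp2a3 for the unedited one, Ahrr and Por for the KO one, and 0 genes for either antimiR course.

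Among knockout rats, Cyp1b1 and Ahrr fell on zinc deficiency and Por rose. These 3 of 8 stand against 21.4% of all genes called in either direction, and the median change of the 8 was -0.22 beside 0.01 over all genes. Of the 10 smooth muscle genes 4 fell, and their mean level ran from 10.80 to 11.75 on ZS and from 9.38 to 10.96 on ZD. With that level as a covariate Cyp1b1 (-0.78, adjusted p = 0.0404) and Ahrr (-0.54, adjusted p = 0.0328) still passed, and Por did not (0.17, adjusted p = 0.323).

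Cyp1b1 had log2 levels of 8.67, 8.79, 8.73 and 8.86 in the 4 ZS KO rats. In the 6 ZD KO rats the lowest was 7.23, the median 7.57 and the highest 8.13. The groups did not overlap, which held for 14.3% of all genes, and the level was 2.14-fold lower on ZD (change -1.10, SE 0.24, limma adjusted p = 0.00206).

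Ahrr stood at 5.66, 5.70, 6.27 and 6.16 in ZS KO rats. In ZD KO rats the lowest was 4.93, the median 5.17 and the highest 5.63, just below the lowest ZS KO rat. Ahrr was lower on ZD (change -0.71, SE 0.15, limma adjusted p = 0.00192), and groups that did not overlap held for 14.3% of all genes. No fold is given, since the ZD KO mean of 5.24 lay below 5.31, the 30th percentile of all gene means. Pearson's r between Cyp1b1 and Ahrr was 0.91 over the 10 KO arrays and 0.64 over the 20 unedited arrays, both of which share a diet difference, and 0.33 within the unedited groups.

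Cyp2a3 read 8.58, 7.28, 5.23 and 7.17 in ZS KO rats. In ZD KO rats the lowest was 4.97, the median 5.37 and the highest 8.41. The groups overlapped, with rat 32 low on ZS and rat 38 high on ZD, and the change of -1.26 (SE 0.68) had an adjusted p of 0.194. Without rat 38 the change was -1.78 (adjusted p = 0.044), and with array weights it was -1.83 (adjusted p = 0.017).

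Por stood at 9.55, 9.35, 9.11 and 9.71 in ZS KO rats. In ZD KO rats the lowest was 9.41, the median 9.73 and the highest 9.91. The groups overlapped and the rise was 1.22-fold (change 0.29, SE 0.10, limma adjusted p = 0.038). The other Por probe set gave the opposite sign, -0.37 (adjusted p = 0.248), with means of 7.50 ± 0.43 (SD, n = 4) on ZS and 7.13 ± 0.57 (SD, n = 6) on ZD. The call was also lost without any 1 of rats 31, 32, 34, 37, 38 and 39 (adjusted p from 0.0539 to 0.253), and without rat 32 the change was 0.18.

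Mgmt lay at 6.997, 7.08, 7.24 and 7.12 in ZS KO rats. In ZD KO rats the lowest was 6.71, the median 6.88 and the highest 6.98. The groups did not overlap, as held for 14.3% of all genes, and the change of -0.24 (SE 0.14) did not pass (limma adjusted p = 0.236). Cyp1a1 read 7.32, 7.84, 5.90 and 8.29 on ZS and from 6.21 to 8.10, with a median of 7.07, on ZD. These groups overlapped throughout, and the change was -0.20 (SE 0.41, adjusted p = 0.782). Ahr (0.12) and Cyp2e1 (0.00) had adjusted p of 0.424 and 0.993.

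The diet effect itself differed between KO and unedited rats for 1 of the 8 genes, Por, against 8.39% of all genes. Genotype, separate experiment and normalization cannot be told apart in such a difference either. Its diet change was 0.51 higher in KO than in unedited rats (SE 0.14, limma adjusted p = 0.0234), the other probe set gave -0.14 (adjusted p = 0.844), and without rat 32 it was 0.40 (adjusted p = 0.0726). For Cyp2a3 the difference was 1.59 (SE 0.95, adjusted p = 0.331), for Cyp1b1 0.47 (SE 0.34, adjusted p = 0.44) and for Ahrr -0.36 (SE 0.22, adjusted p = 0.331). Calls of Cyp2a3 in unedited rats and of Ahrr in KO rats were thus not shown to differ between genotypes.

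Levels in KO rats can only be set beside those in unedited rats. After each array's median was subtracted, Cyp1a1 averaged 1.45 on ZS KO and 1.30 on ZD KO, and from -0.80 to 0.14 in the 4 unedited groups. Mgmt averaged 1.23 and 1.03 in the KO groups and from 0.46 to 0.92 in the others. Ahr averaged -1.90 and -1.74 against -1.19 to -1.13, and its other probe set -1.57 and -1.72 against -1.60 to -1.16. Before the subtraction Ahr averaged 3.99 and 4.10 against 4.21 to 4.29.

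AntimiR was compared with untreated ZD rats for each course, the question being whether blocking miR-31 moved these genes on the deficient diet. After 5 weeks, limma called 0 of the 8 genes and 0% of all genes, and 0 of the 8 had an unadjusted p under 0.05. After 20 weeks it called 0 of the 8 beside 0.647% of all genes, again with 0 of the 8 at an unadjusted p under 0.05. Between the courses it called 0 of the 8 beside 0.0211% of all genes, with 0 at an unadjusted p under 0.05. Over all genes the unadjusted shares were 7.18% after 5 weeks, 14.8% after 20 weeks and 6.11% between the courses. The median change of the 8 was 0.00 after 5 weeks and 0.07 after 20 weeks, beside 0.00 and -0.01 over all genes.

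Cyp2a3 in rats of the 20-week course read 4.21, 4.30, 6.45, 4.44 and 6.08. After the 5-week course it read 4.88, 4.12, 4.18, 4.35 and 4.33. Rats 3 and 5 of the longer course lay between the ZD range and most ZS rats, and the other 3 lay within the untreated ZD range. The change at 20 weeks was 0.96 (SE 0.67, adjusted p = 0.525), and its 95% interval ran from -0.41 to 2.33. At 5 weeks it was 0.23 (SE 0.67, adjusted p = 0.959).

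Cyp1b1 had levels of 6.25, 5.49, 6.88, 6.76 and 6.81 after 20 weeks. After 5 weeks they were 6.18, 5.77, 5.74, 6.59 and 5.61. Both courses overlapped untreated ZD rats, with changes of 0.39 (SE 0.24, adjusted p = 0.447) and -0.06 (SE 0.24, adjusted p = 0.971). Cyp1a1 read 4.67, 4.21, 5.19, 6.29 and 5.62 after 20 weeks and 4.52, 4.95, 4.36, 4.41 and 4.79 after 5 weeks, and both sets overlapped untreated ZD rats.

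Mgmt stood at 5.66, 5.39, 5.87, 6.12 and 6.27 after 20 weeks. After 5 weeks it stood at 6.30, 6.07, 6.08, 5.81 and 6.22. Rats 1, 2 and 3 of the longer course lay below every untreated ZD rat, and the change was -0.20 (SE 0.14, adjusted p = 0.531). Por lay between 9.49 and 9.62 and between 9.39 and 9.54 in the longer and the shorter course. Ahrr lay between 4.22 and 5.00 and between 4.48 and 4.70, and Ahr between 3.97 and 4.35 and between 4.19 and 4.48. Cyp2e1 lay between 4.20 and 4.41 and between 4.18 and 4.50. The other Ahr probe set averaged 3.82 in untreated ZD rats, 4.14 after 20 weeks and 4.25 after 5 weeks. Its changes of 0.32 and 0.43 did not pass.

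The antimiR groups were also set against ZS rats, a contrast that shares those controls with the diet comparison. After 5 weeks, 2 of the 8 genes were lower than on ZS beside 9.08% of all genes called, namely Cyp1b1 (-1.63, SE 0.24, limma adjusted p = 0.000205) and Cyp2a3 (-2.62, SE 0.67, adjusted p = 0.0136). For Cyp1b1 these groups did not overlap, which held for 8.23% of all genes. Both calls passed in each of 22 alternative runs, the smooth muscle covariate among them. The highest limma adjusted p was 0.0107 for Cyp1b1 and 0.0433 for Cyp2a3. After 20 weeks, 1 of the 8 was lower beside 3.63% of all genes, namely Cyp1b1 (-1.17, SE 0.24, limma adjusted p = 0.00689), whose groups did not overlap, as held for 6% of all genes. This call was lost when these groups alone were fitted (adjusted p = 0.0569) or smooth muscle level was a covariate (-0.91, adjusted p = 0.0627). Cyp2a3 did not pass (-1.89, SE 0.67, adjusted p = 0.111), and without rat 19 it was -2.57 (adjusted p = 0.0203). Mgmt came close (-0.48, SE 0.14, adjusted p = 0.0506), and it passed without antimiR rat 4 (-0.54, adjusted p = 0.0352) or 5 (-0.58, adjusted p = 0.0157) or ZS rat 18 (-0.57, adjusted p = 0.0328). Cyp1b1 thus read in the order ZS (7.61), 20-week antimiR (6.44), untreated ZD (6.05) and 5-week antimiR (5.98), and only ZS stood apart from its neighbour.

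In the antimiR groups the smooth muscle level ran from 7.28 to 9.54 after 5 weeks and from 7.25 to 9.80 after 20 weeks. Against untreated ZD limma called 0 of the 10 genes in either, with 1 and 6 at an unadjusted p under 0.05. Over all genes 0% and 0.647% were called, and 7.18% and 14.8% had an unadjusted p under 0.05. Fibroblast genes in KO rats had mean levels of 9.57 to 11.52 on ZS and 9.06 to 10.27 on ZD, with 2 of 8 lower. Macrophage genes had 6.71 to 8.72 and 6.16 to 6.95, with 4 of 7 lower. Over all genes 21.4% were called in either direction for diet in KO rats, so the fibroblast count is near that share. With the fibroblast level as a covariate, chosen after the data were seen, Cyp1b1 and Ahrr still passed in KO rats and Por did not (adjusted p = 0.284). The part of the macrophage signal in these results was not tested.

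**Figure D3:**
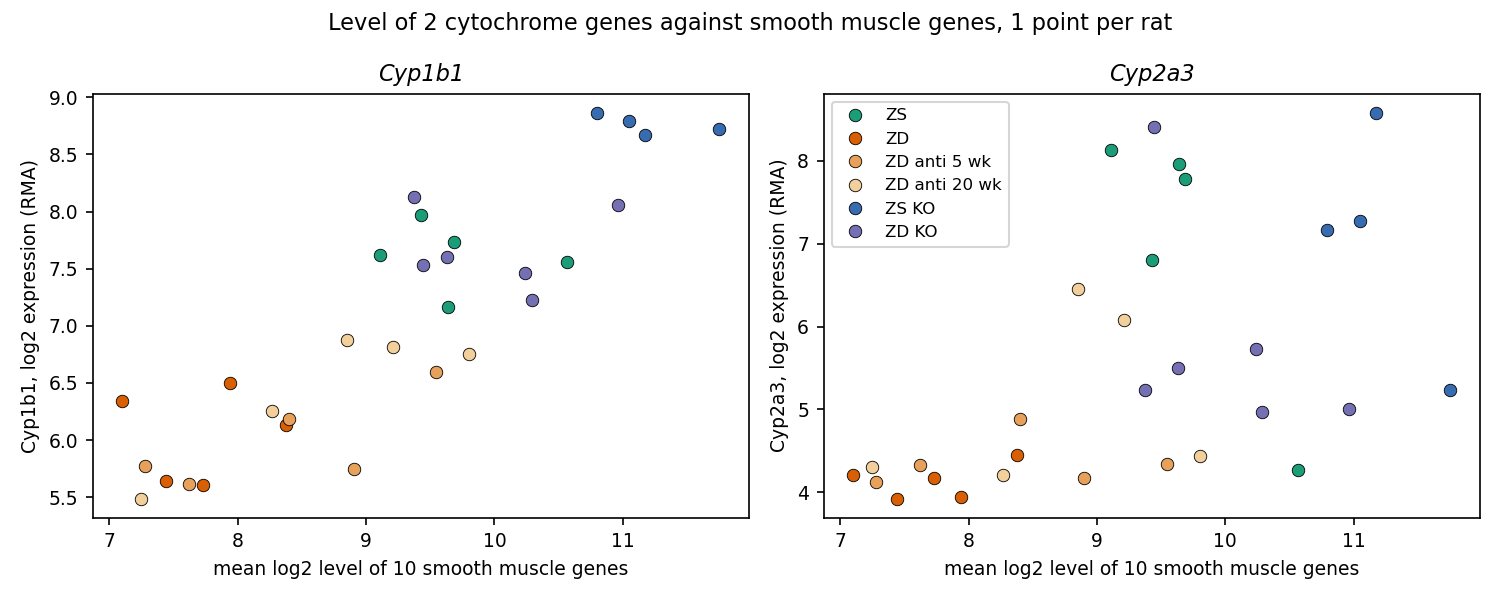
Log2 expression of Cyp1b1 and Cyp2a3 (vertical axes) against the mean log2 level of 10 smooth muscle genes (horizontal axes), 1 point per rat, coloured by group. Untreated ZD rats lie at 7.10 to 8.38 and ZS rats at 9.11 to 10.57 on the horizontal axis, and the ZS rat with the highest smooth muscle level, 10.57, has the lowest Cyp2a3 of its group.

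The ZS rats with low Cyp2a3 carried some markers of other epithelia, though not all of those listed. A list of 6 genes of columnar and airway epithelium averaged 5.07 in ZS rat 19 and 4.01 to 4.31 in the other ZS rats, and its mucin gene Muc5ac stood at 7.07. The same list averaged 5.35 in ZS KO rat 32 and 4.03 to 4.19 in the other ZS KO rats, with the intestinal mucin Muc2 at 7.61 and the simple-epithelium keratin Krt8 at 7.05. In rat 19 Krt8 stood at 5.19. Krt18, another keratin of the list, was also highest of its group in both rats. It stood at 4.42 in rat 19 and 3.78 in rat 32, beside group means of 3.30 and 3.23. These genes were named after their values were seen, and the remaining genes of the list were not high in these rats. Across all ZS rats Muc2 reached at most 4.11 and Foxj1 at most 3.90. Across all ZS KO rats Scgb1a1 reached at most 4.71, Foxj1 at most 4.14 and Muc5ac at most 5.02. Rats 19 and 32 were the lowest for Cyp2a3 in their groups. The part of any other tissue in the result was not tested beyond leaving these rats out.

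**Figure D4:**
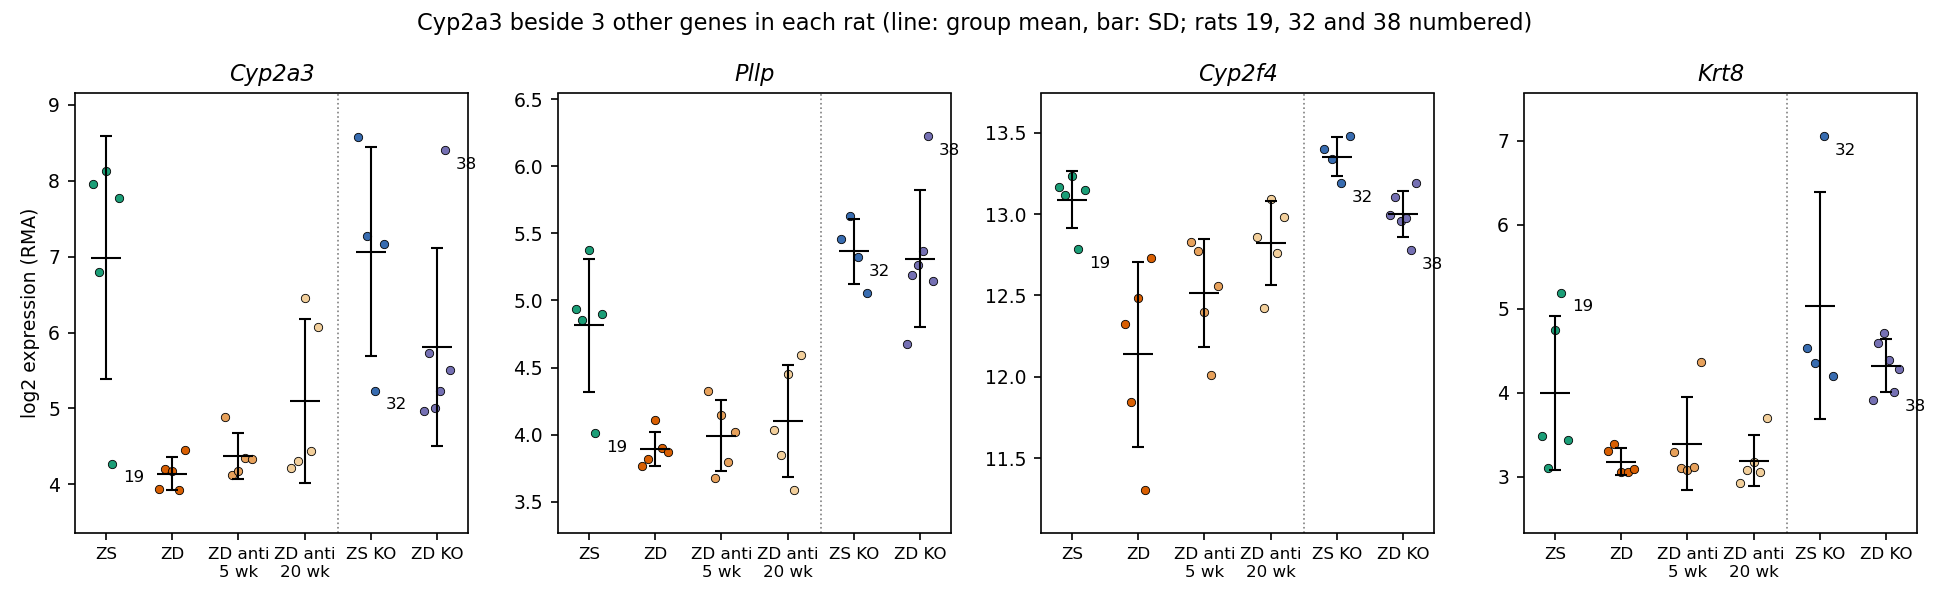
Log2 expression (vertical axes) of Cyp2a3, Pllp, Cyp2f4 and Krt8 in each rat (points) by group, with mean (line) and SD (bar), and rats 19, 32 and 38 numbered; Krt8 was picked for display after its values were seen. Rat 19 is low for Cyp2a3 (4.27) and high for Krt8 (5.19) among ZS rats, rat 32 is low for Cyp2a3 (5.23) and high for Krt8 (7.05) among ZS KO rats, and rat 38 is high for Cyp2a3 (8.41) among ZD KO rats.

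Likeness was measured by Pearson's r over the 20 unedited arrays, which share the diet difference, so the value for deviations from group means is given beside it. The gene most like Cyp2a3 was Pllp, which encodes the membrane protein plasmolipin (r = 0.94, within groups 0.86), followed by Nat8f5 (0.89, within groups 0.76) and Cblc (0.87, within groups 0.62). Over the 10 KO arrays these stood at 0.66, 0.21 and 0.11. Por shared Nat8f5 (0.88, within groups 0.81), ahead of Slc45a4 and Arhgef16 (both 0.87, within groups 0.81 and 0.79), with -0.20, 0.53 and 0.16 over the KO arrays. It correlated with Cyp2a3 itself at 0.87 (within groups 0.74, over the 10 KO arrays 0.14). Nat8f5 read between 2.87 and 3.58 in untreated rats without an edit. Pllp averaged 3.89 to 4.81 in the unedited groups, also below 5.31, the 30th percentile of all gene means.

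Cyp1b1 was most like Serpina11, Sod3, the extracellular superoxide dismutase, and Susd2 (all 0.91, within groups 0.64, 0.79 and 0.71). Their values over the KO arrays were -0.21, 0.78 and 0.85. Mgmt was most like Paqr7 (0.87), Them4 (0.85) and Rps6ka5 (0.84), with 0.86, 0.80 and 0.76 within groups and -0.19, -0.41 and 0.40 over the KO arrays. Cyp1a1 was most like Tead1 and Rps4y2 (both 0.82) and Sgpl1 (0.80), with 0.78, 0.75 and 0.72 within groups and -0.28, 0.39 and 0.59 over the KO arrays. It correlated with Cyp1b1 at 0.73 (within groups 0.68, over the KO arrays 0.25).

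The other genes of these pathways are given as counts, to be read against the 13.9% of all genes called for diet in unedited rats and the 21.4% in KO rats. For an unadjusted p under 0.05 the shares of all genes were 28% and 34.5%. Of 4 measured Ahr partners and chaperones limma called 0 for diet in either genotype, with 1 at an unadjusted p under 0.05 in unedited and 0 in KO rats. Of 4 further Ahr target genes, Tiparp, an ADP-ribosyltransferase that restrains Ahr, rose on ZD. The rise was 0.94 in unedited rats (SE 0.13, limma adjusted p = 0.000102) and 0.60 in KO rats (SE 0.14, adjusted p = 0.00316). The direction was opposite to that of Cyp1b1. Tiparp read 8.45 ± 0.25 (SD, n = 5) on ZS and 9.39 ± 0.26 (SD, n = 5) on untreated ZD.

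Of 28 other cytochromes of families 1 to 3, 2 rose and 2 fell on ZD in unedited rats, with a median change of -0.05 beside 0.00 over all genes. This count of 4 in 28 is near the share over all genes. Cyp2j3 rose by 0.52 and Cyp3a9 by 0.46, and Cyp2f4 and Cyp2c11 fell, the latter by 0.67. In KO rats 4 rose and 0 fell, with a median of 0.04: Cyp2j4 (1.10), Cyp2j3 (0.79), Cyp3a9 (0.76) and Cyp2j10 (0.48). The Cyp2j enzymes oxidise fatty acids, and Cyp3a9 belongs to the steroid- and drug-oxidising family.

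Of 7 other genes of microsomal electron transfer, Cyb5r3, a cytochrome b5 reductase, and Pgrmc2 fell in both genotypes. Cyb5r3 fell by 0.53 in unedited and by 0.95 in KO rats, and Pgrmc2 by 0.22 and by 0.18. In KO rats Cyb5r4 rose by 0.53. The median change of the list was -0.22 in unedited rats and 0.05 in KO rats.

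Among repair genes in unedited rats, Alkbh1 rose, as 1 of 12 base excision and alkyl repair genes (0.34, limma adjusted p = 0.031), and Msh6 fell, as 1 of 7 mismatch repair genes (-0.36, adjusted p = 0.00531). These counts are near the share of all genes called, and 4 of the 12 had an unadjusted p under 0.05, beside 28% of all genes. In KO rats Polb, the repair polymerase, rose by 0.72 and Alkbh1 by 0.33, while Xrcc1 fell by 0.64, Parp1 by 0.56 and Apex1 by 0.49, and limma called 0 mismatch repair genes, with 0 at an unadjusted p under 0.05. The diet effect differed between KO and unedited rats for Polb (0.83, limma adjusted p = 0.0173), Apex1 (-0.64, adjusted p = 0.0482) and Msh6 (0.45, adjusted p = 0.0214). Over the 74 genes of all pathway lists it differed for 7, near the 8.39% of all genes. The rest of these were Cyp2j4 (0.71), Cyp2j10 (0.70), Ephx1 (-0.65) and Tpmt (-0.89), so the difference was not particular to repair genes. Here too genotype and separate experiment cannot be told apart.

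Of 13 conjugation and hydrolysis genes, Tpmt, a thiol methyltransferase (0.95), and Sult1b1 (0.76) rose in unedited rats on ZD, and the sulfotransferase Sult1a1 (-1.43) and the flavin monooxygenase Fmo1 (-1.05) fell. In KO rats 4 fell, namely Fmo1 (-1.33), the epoxide hydrolase Ephx1 (-1.04) and the glutathione transferases Gstt1 (-0.53) and Gstm2 (-0.34). Over the 74 genes of these lists limma called 0 after 5 or 20 weeks of antimiR against untreated ZD, with 12 and 15 at an unadjusted p under 0.05. Over all genes 0% and 0.647% were called, and 7.18% and 14.8% had an unadjusted p under 0.05.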

How the data were processed

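RNA from oesophageal epithelium of 30 rats was measured on Affymetrix arrays, 1 per rat. The authors deposited log2 expression values per probe set, made with Affymetrix Expression Console and RMA per the submitters' processing notes, with no version stated in the labels. Among 31099 probe sets there were 57 controls, 9780 without a symbol, 436 with several and 20826 with 1, and 20758 of the latter matched RefSeq by gene ID. The probe set with the highest mean stood for each of 14217 genes, 4525 of which had more than 1.

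A model with a coefficient for each group was fitted to all 30 arrays (limma 3.58.1, R 4.3.3), and p-values were adjusted within each comparison by Benjamini-Hochberg. The fit was tested on simulated data. Alternatives were quantile normalization, median centring, no dim genes, trend and robust fitting, array weights, fewer groups, other probe sets, marker covariates and leaving out each array. Named were the 8 genes, up to 4 called genes of each pathway list by adjusted p, and the 3 genes most like each member whose highest group mean exceeded the median gene (Cyp1a1, Cyp1b1, Cyp2a3, Por and Mgmt). The Cyp2 neighbours, and the fifth called base excision gene in KO rats, lie outside the rule and were chosen after values were seen. Members and lists were chosen with earlier results of these data known. The number of arrays limits the precision.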

Additional observations from a re-analysis of the deposited data

Results flagged for a closer look

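Of 48 sets of values (8 genes in 6 groups), 4 had a single rat far from the rest of its group, and chance gives about 1 in 20. Cyp2a3 in ZD KO rat 38 stood at 8.41, against 4.97 to 5.72 in the other 5. Cyp2e1 in ZD KO rat 35 stood at 5.31, against 4.51 to 4.79. Cyp2e1 in 20-week antimiR rat 5 stood at 4.20, against 4.35 to 4.41. Ahr in ZS rat 18 stood at 4.05, against 4.33 to 4.38. Cyp2e1 and Ahr are dim on these arrays.

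The diet effect on Por differed between KO and unedited rats, by 0.51 (SE 0.14, limma adjusted p = 0.0234). It did not pass with the other probe set, with the mean of both probe sets (0.19, adjusted p = 0.652) or without ZS KO rat 32 (0.40, adjusted p = 0.0726).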

How the results depend on the processing

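The number of the 8 genes called moved by over 1.5 times in 4 comparisons. For diet in unedited rats it went from 2 to 0 with the smooth muscle covariate. For 5-week antimiR against ZS it went from 2 to 4 when only these groups were fitted. For 20-week antimiR against ZS it went from 1 to 2 without the dimmest 30% of genes or with the keratinocyte level as a covariate, chosen after seeing the data, and to 0 with only these groups or with the smooth muscle covariate. Leaving out each array gave 1 to 2, with 2 without antimiR rat 4 or 5 or ZS rat 18 or 19. For diet by genotype it went from 1 to 0 with only these groups, the mean of probe sets or the other probe set, and leaving out each array gave 0 to 1, with 0 without ZS KO rat 32. Por for diet in KO rats reversed with the mean of probe sets (-0.043) and the other probe set (-0.37). Its difference in diet effect between KO and unedited rats reversed with the other probe set (-0.14). The call of Por for diet in KO rats was also lost with array weights (limma adjusted p = 0.0748). The cause was not tested. Cyp1b1 and Ahrr in KO rats passed in every alternative run that tested them, Ahrr being left out with the dimmest 30% of genes. No paired analysis was possible because each rat has a number of its own. Low levels without detection calls limit what can be read for Cyp2e1, Ahr, Ahrr, and Cyp2a3 and Cyp1a1 in unedited ZD groups.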
